A study of Mus musculus with 18 samples.

Results

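Non-dividing intestinal cells with at least 1 Lgr5 transcript were examined in single-cell RNA-seq of sorted mouse ileal crypt cells. In this assay a UMI is a random tag that counts captured RNA molecules, and a barcode marks the droplet a cell was in. A barcode belonged to the population when it held 1000 to 18000 UMIs, 200 to 4000 genes and under 5% mitochondrial (mt-) UMIs, with at least 1 Lgr5 UMI and at least 3 Olfm4 UMIs. It could hold at most 1 UMI summed over 8 mitosis genes (Ube2c, Cenpf, Top2a, Prc1, Nusap1, Aurka, Cdc20 and Ccnb2) and fewer than 5 UMIs summed over 6 DNA replication genes (Mcm3, Mcm5, Mcm6, Hells, Ung and Dtl). Of 25204 barcodes within the UMI, gene and mitochondrial limits in the 4 Lgr5+ libraries, 719 met all criteria (2.85%). Lgr5+WT contributed 215 and 200 of them and Lgr5+Setdb1KO 100 and 204, with replicate 1 first here and throughout. All 8 single-cell libraries of the series held 42869 barcodes within these limits.

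Lgr5+WT stands for mice of the genotype Lgr5-GFP-CreERT2, and Lgr5+Setdb1KO for Lgr5-GFP-CreERT2/ Setdb1lox/lox mice, in which exon 3 of Setdb1 is flanked by lox sites. Both groups carried a knock-in allele that drives GFP and a tamoxifen-inducible Cre from the Lgr5 locus. Both were given tamoxifen into the peritoneum at 70 mg/kg and were analysed 5 days later, at an age of 60 to 65 days on a C57Bl6 background. The knock-in allele is silenced at random in part of the crypts, the wild-type controls have no floxed Setdb1 allele, and each genotype has 2 biological replicates. Loss of Setdb1 and any other inherited difference between the floxed and the control mice, near the called genes or elsewhere, cannot be told apart with these groups. GFP+ cells were sorted from ileal crypts, and the libraries are treated as the replicates. An exact two-sided permutation test of 2 libraries against 2 reaches a p of 0.33 at best.

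Lgr5 encodes a receptor for R-spondins, secreted proteins that keep Wnt signaling high, and its transcript marks the columnar stem cells that lie between Paneth cells at the crypt base. These cells renew the epithelium, and their daughters pass through a dividing progenitor stage before they mature into absorptive or secretory cells. Setdb1 is a histone methyltransferase that places H3K9me3, a mark of silent chromatin. Intestinal stem cells can also carry MHC class II molecules, which present peptides to helper T cells.

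The 4 libraries held between 50722926 and 81876035 UMIs, of which the chosen cells contributed 1250948 and 1070163 in Lgr5+WT and 721596 and 908347 in Lgr5+Setdb1KO. The median depth stood at 5365 and 4895 UMIs in Lgr5+WT cells and at 7097.5 and 3617.5 UMIs in Lgr5+Setdb1KO cells. Depth therefore differed more between the knockout replicates than between the genotypes. The median number of genes followed the same order, with 1806 and 1598.5 genes in Lgr5+WT and 2012.5 and 1265.5 in Lgr5+Setdb1KO. No cell barcode of the population was shared between libraries (0 over 6 pairs of libraries). GFP, counted as a feature of its own, reached 1, 2, 3 and 1 UMIs over all cells of the population in the 4 libraries. Over all barcodes of these libraries it reached only 18, 23, 13 and 16 UMIs. The feature was thus hardly counted at all, and its UMIs do not tell which cells express GFP.

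The UMIs of Lgr5, Olfm4 and the cell cycle genes chose these cells, so their levels are a description and carry no test. Lgr5 stood at exactly 1 UMI in 595 of the 719 cells (82.8%) and at 2 or more in 124 (17.2%). Another 4464 barcodes met every other criterion and had no Lgr5 UMI, and are called Lgr5-undetected below. The Olfm4 limit was crossed widely, with a median of 51 and 33 UMIs per cell in Lgr5+WT and 41 and 19 in Lgr5+Setdb1KO. Only 2 cells stood at the limit of 3 Olfm4 UMIs, and 8 barcodes otherwise inside had 2. The mitosis sum was 0 in 527 cells and 1 in 192, and 91 barcodes otherwise inside had a sum of 2. The replication sum was 0 in 308 cells and 4 in 54, and 33 barcodes otherwise inside had a sum of 5. Olfm4-high barcodes with a mitosis sum of at most 1 and a replication sum of at least 5 (689 barcodes) are called S-phase cells. Those with a mitosis sum of at least 5 (5307) are called dividing cells.

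Genes of crypt base stem cells that took no part in the rule were high in the chosen cells of every library. On the CPM scale, on which the UMIs of each library's summed cells are set to the same total, Gkn3 stood at 337 and 402 in Lgr5+WT and at 356 and 203 in Lgr5+Setdb1KO, against a mean over the 4 libraries of 180.4 in S-phase and 111 in dividing cells. Pdgfa, a growth factor that signals to the mesenchyme, stood at 264 and 220.5 CPM in Lgr5+WT and at 155 and 121 CPM in Lgr5+Setdb1KO. Its mean CPM over the 4 libraries was 70.9 in S-phase cells and 49.2 in dividing cells, lower in both classes than in the chosen cells of each library. Igfbp4, which binds insulin-like growth factors, averaged 129 CPM in the chosen cells and 61.2 CPM in dividing cells. Sp5, a Wnt target, averaged 95.2 CPM against 36.7 CPM. The proliferation gene Mki67, which the rule did not use either, stood at 8.79 and 8.41 CPM in Lgr5+WT and at 1.39 and 8.81 CPM in Lgr5+Setdb1KO, against 87.9 to 125 CPM in dividing cells. Not every stem cell gene followed this order. Ascl2, a transcription factor of the stem cell state, averaged 129.7 CPM in the chosen cells and 128 CPM in S-phase cells.

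**Figure D1:**
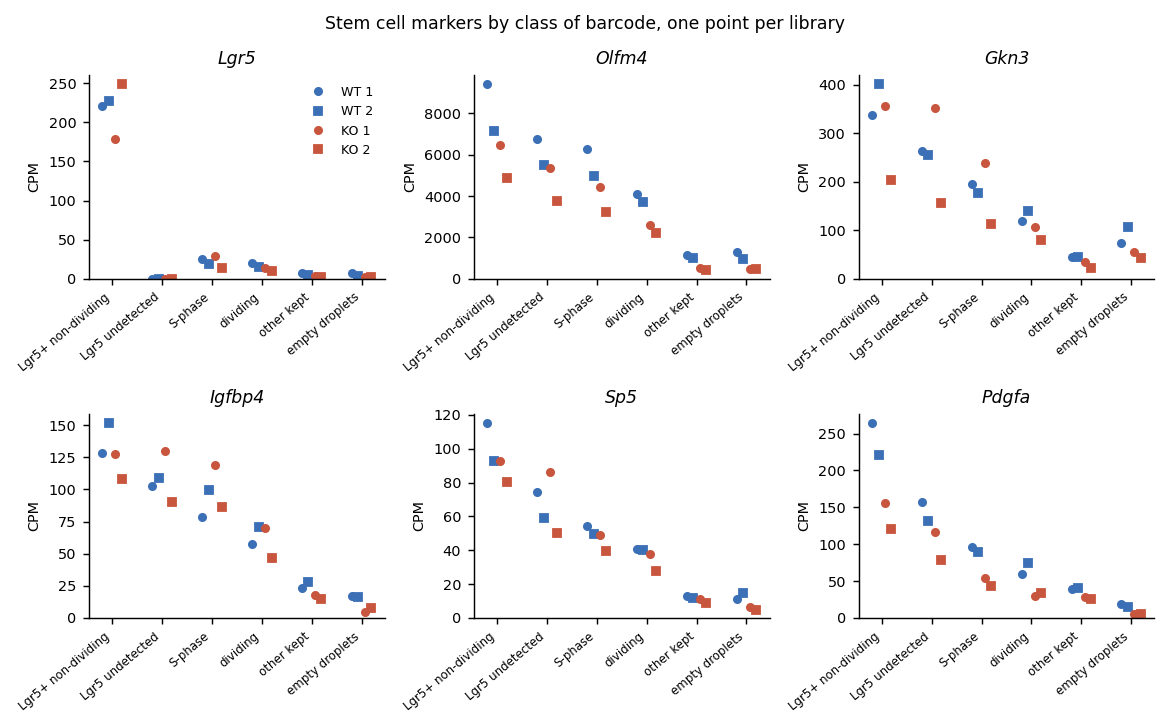
Levels of the 6 marker genes in CPM (vertical axis) in each class of barcodes and in empty droplets (horizontal axis), 1 point per library, blue for Lgr5+WT and red for Lgr5+Setdb1KO, circles for replicate 1 and squares for replicate 2. Lgr5 and Olfm4 helped to choose the cells; Pdgfa falls from a mean of 190.2 CPM in the chosen cells to 49.2 CPM in dividing cells.

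Free RNA in the suspension puts UMIs into cells that do not express a gene, so detection was also compared with goblet cells of the same libraries after thinning every cell to 2000 UMIs. Gkn3 was then detected in 34.6% and 48.0% of the chosen cells in Lgr5+WT and in 37.4% and 32.3% in Lgr5+Setdb1KO, against 0.457% to 1.83% of barcodes with at least 10 Muc2 UMIs. Pdgfa was detected in 38.3% and 34.3% of the chosen cells in Lgr5+WT and in 18.2% and 20.7% in Lgr5+Setdb1KO, against 3.65% to 4.88% of those goblet barcodes. Both genes lay far above the level that free RNA gives.

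Transcripts of other cell types were present, and 1 library stood apart. Markers of enterocytes, goblet, Paneth, enteroendocrine and tuft cells and T cells took a median share of 0.447% and 0.566% of the UMIs per cell in Lgr5+WT and 0.424% and 0.996% in Lgr5+Setdb1KO. The share exceeded 2% in 58 of the 719 cells, namely 10 and 9 cells in Lgr5+WT and 3 and 36 in Lgr5+Setdb1KO. Single cells reached 54.4% and 49.3% in Lgr5+WT, and 2.45% and 61.2% in Lgr5+Setdb1KO. The second Lgr5+Setdb1KO library therefore held most of the cells with a strong secretory signal. Paneth markers summed to 5779 and 12706 CPM in Lgr5+WT, and to 2822 and 83496 CPM in Lgr5+Setdb1KO. Goblet markers summed to 6194 and 4983 CPM in Lgr5+WT, and to 801 and 11755 CPM in Lgr5+Setdb1KO. Without the 58 cells the Paneth sum was 2167 and 2861 CPM in Lgr5+WT, and 2553 and 5375 CPM in Lgr5+Setdb1KO. Tuft markers summed to 43.2 and 172 CPM in Lgr5+WT and to 127 and 31.9 CPM in Lgr5+Setdb1KO, and to 46.8, 185, 1.43 and 3.15 CPM without those cells. Markers of T cells summed to 1.10 to 14.95 CPM, with Cd3d, Trac, Trdc, Gzmb and Nkg7 at 0 in every library. Markers of B cells, fibroblasts, endothelium, blood and macrophages summed to at most 2.40 CPM, with 7 of 11 genes, among them Cd79a, Col1a1, Pecam1 and Lyz2, at 0. The marker lists of the differentiated lineages are therefore given for all 719 cells and again without the 58 cells, a limit of 2% that was chosen after these shares were seen.

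**Figure D2:**
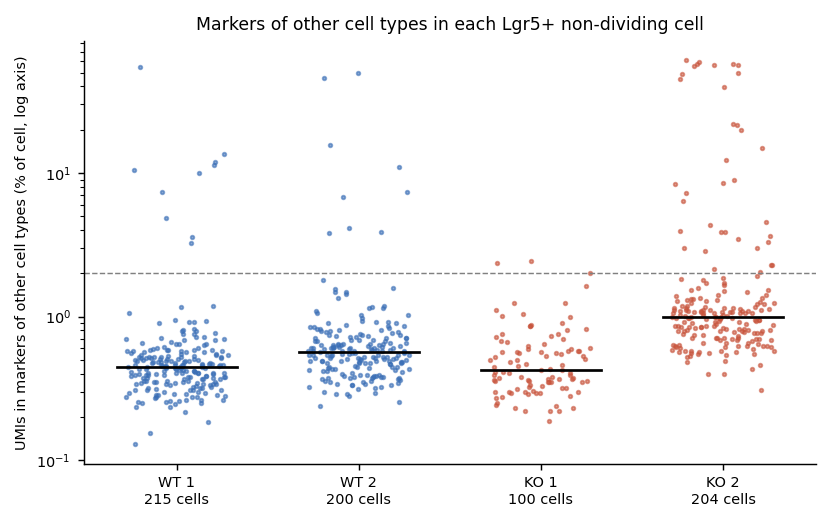
Share of UMIs in markers of other cell types, in percent on a log axis, for each of the 719 cells by library, with the median as a black line and the limit of 2% as a dashed line. The second Lgr5+Setdb1KO library has 36 cells above the limit and the highest median, 0.996%.

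The targeted gene came first. Setdb1 gave 19 and 20 UMIs in the chosen cells of Lgr5+WT and 3 and 2 UMIs in those of Lgr5+Setdb1KO. After TMM scaling of the library sums (scaled CPM), these were 14.3 and 19.2 against 4.12 and 2.5, with means of 16.8 ± 3.44 and 3.31 ± 1.15 (SD, n = 2 libraries each). Both knockout libraries lay below both controls. The log2 fold change was -2.29 (SE 0.527), with an adjusted p of 0.214 (edgeR, quasi-likelihood test, Benjamini-Hochberg over 6825 genes), and the ratio of the summed UMIs was 0.183 (95% exact interval for counting error only, 0.0562 to 0.464). The gene lies at chr3:95323525-95357202 on the minus strand (mm10), and counting at the 3′ end of transcripts does not read the deleted exon 3, so these UMIs check the labels only in part. In the other classes Setdb1 had a log2 fold change of -0.68 in Lgr5-undetected, -0.02 in S-phase and -0.90 in dividing cells (edgeR adjusted p = 0.568, 0.998 and 0.0969). The difference from S-phase cells was -2.31 (SE 0.708), which had an edgeR adjusted p of 0.97 over all genes.

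No gene of the stem cell list passed the test between the genotypes. Of 33 stem cell genes 31 could be tested, and 0 of them passed the threshold of 0.05 in either direction, where 7 of all 6825 genes tested did (0.103%). An unadjusted p under 0.05 was found for 8 of the 31, where 8.06% of all genes tested had one, the background for such counts in the later lists too. DESeq2 called 0. Its adjusted p was undefined for 4631 of the 6825 genes, and such genes count as not called in every list. The median log2 fold change of the list was -0.20, against 0.0055 over all genes tested. The libraries of the genotypes did not overlap in 1 gene that was higher and 10 that were lower in Lgr5+Setdb1KO. Over all genes such a separation was seen in 18.4% (higher) and 19.7% (lower). Lgr5 stood at 208 and 233 scaled CPM in Lgr5+WT and at 177 and 283 in Lgr5+Setdb1KO, and Olfm4 at 8895 and 7339.8 against 6427 and 5546. Both helped to choose the cells. Such genes were not taken out of the list, so its counts and median are in part a description. Gkn3 had a log2 fold change of -0.32, Igfbp4 of -0.14 and Sp5 of -0.15 (edgeR adjusted p = 0.758, 0.905 and 0.88).

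Pdgfa was the marker with the largest difference. It stood at 249 and 226 scaled CPM in Lgr5+WT and at 154 and 138 in Lgr5+Setdb1KO, so that the genotypes did not overlap. The log2 fold change was -0.71 (SE 0.163, edgeR adjusted p = 0.214). Without the cells over 2% lineage markers it was -0.75 and passed (SE 0.175, edgeR adjusted p = 0.0438), but leaving out a further library ended that call for 3 of the 4 libraries (adjusted p = 0.163 without Lgr5+Setdb1KO replicate 1, 0.492 without replicate 2 and 0.13 without Lgr5+WT replicate 1). Clca3b, a stem cell gene of the chloride channel accessory family, stood at 614 and 409.6 scaled CPM in Lgr5+WT and at 282 and 319 in Lgr5+Setdb1KO (log2 fold change -0.77, SE 0.203, edgeR adjusted p = 0.327). It was picked after its values were seen.

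Genes of the pathways that keep stem cells undifferentiated did not pass either. Of 27 genes of the Wnt pathway 18 could be tested, 0 passed with edgeR or DESeq2 (2 at an unadjusted p under 0.05), and their median log2 fold change was -0.18. Without overlap, 8 were lower and 0 higher, where 19.7% and 18.4% of all genes were. Axin2, a feedback target of Wnt signaling, stood at 81.4 and 86.3 scaled CPM in Lgr5+WT and at 96.2 and 66.3 in Lgr5+Setdb1KO, and Ctnnb1, which encodes beta-catenin, at 151 and 142 against 132 and 124. Rspo1 and Rspo3, R-spondins that amplify Wnt signaling, and the Wnt antagonist Notum were at 0 UMIs in all 4 libraries. Of 17 Notch genes 6 could be tested, 0 passed with either tool (1 at an unadjusted p under 0.05), and the median was -0.03. The Notch target Hes1, a repressor of the secretory fate, stood at 159.8 and 146 scaled CPM in Lgr5+WT and at 139 and 141 in Lgr5+Setdb1KO. Of 14 genes of reserve stem cells and inhibitors of cyclin-dependent kinases 6 could be tested and 0 passed with either tool (1 at an unadjusted p under 0.05), with Hopx at a log2 fold change of -0.30 and Cdkn1b at -0.45 (edgeR adjusted p = 0.665 and 0.644). Cell cycle genes outside the rule had medians of 0.12 over 19 replication genes and 0.10 over 8 mitosis genes, with 0 calls by either tool (2 and 1 at an unadjusted p under 0.05). The 6 replication and 2 mitosis genes of the rule that could be tested had medians of 0.27 and 0.13, as a description.

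Across all 6825 genes, 7 passed the threshold, 5 higher (0.0733%) and 2 lower (0.0293%) in Lgr5+Setdb1KO, and 550 had an unadjusted p under 0.05. The genes that rose were Alad, Gm42031, Phgr1, Ly6e and Apoa1. The genes that fell were Ceacam10 and Cd177. Each separated the libraries of the genotypes without overlap. Which library was left out moved the count, to 6 without Lgr5+WT replicate 1, 94 without its replicate 2, 104 without Lgr5+Setdb1KO replicate 1 and 92 without its replicate 2. Each of these fits leaves 1 genotype with a single library, assumed to vary like the other genotype, which alone gives the spread, so that passing in them says little about stability.

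Alad encodes aminolevulinate dehydratase, an early enzyme of heme synthesis. It stood at 67.8 and 70.0 scaled CPM in Lgr5+WT and at 212 and 210.1 in Lgr5+Setdb1KO (means 68.9 ± 1.55 and 211 ± 1.04, SD, n = 2 libraries each). The replicates were nearly equal within each genotype. The fitted difference was 3.06-fold (log2 fold change 1.61, SE 0.169, edgeR adjusted p = 0.00556). At least 1 Alad UMI was found in 33.5% and 28.5% of the Lgr5+WT cells and in 74% and 50% of the Lgr5+Setdb1KO cells, without thinning. The gene lies at chr4:62509169-62519918 (mm10, minus strand), and the annotation places Hdhd3, a gene for a hydrolase domain protein, next to it at chr4:62499008-62503467. Hdhd3 was picked for this place after the values were seen. It stood at 34.7 and 26.9 scaled CPM against 82.4 and 71.3 (log2 fold change 1.3, SE 0.215, edgeR adjusted p = 0.0858; 1.21 and 0.0139 without the cells over 2% lineage markers).

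Gm42031, a long intergenic noncoding RNA at chr8:85125872-85132289 (mm10, minus strand), was nearly silent in the controls. It gave 0 and 2 UMIs in Lgr5+WT and 31 and 39 UMIs in Lgr5+Setdb1KO, or 0 and 1.92 against 42.6 and 48.8 scaled CPM. Relative to all UMIs of the cells, the ratio of the summed counts was 49.8 (95% exact interval for counting error only, 13.3 to 420), and the edgeR adjusted p was 0.00556. It was detected in 27.0% and 16.2% of the Lgr5+Setdb1KO cells, against 0% and 1.00% of the Lgr5+WT cells. The count of 0 in 215 cells of the first control allows a share of cells with a UMI of up to 1.40%, which is no limit on the share of cells that express the gene.

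Phgr1, a histidine- and glycine-rich protein of the intestinal epithelium, stood at 349.7 and 442 scaled CPM in Lgr5+WT and at 1008 and 1231 in Lgr5+Setdb1KO (means 396 ± 65.4 and 1119.5 ± 157, SD, n = 2 libraries each). The difference was 2.83-fold (log2 fold change 1.5, SE 0.185, edgeR adjusted p = 0.0152), and the gene lies at chr2:118772769-118778165 on the plus strand. Ly6e, a membrane-anchored protein of the Ly6 family, stood at 106 and 90.2 scaled CPM in Lgr5+WT and at 239 and 281 in Lgr5+Setdb1KO. The difference was 2.64-fold (log2 fold change 1.40, SE 0.177, edgeR adjusted p = 0.0152), at chr15:74955051-74959905 on the plus strand. For both genes the lower knockout library was far above the higher control, Phgr1 at 1008 against 442 and Ly6e at 239 against 106.

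Apoa1, the main protein of high-density lipoprotein and an enterocyte marker, stood at 6.03 and 5.76 scaled CPM in Lgr5+WT and at 45.3 and 32.5 in Lgr5+Setdb1KO (log2 fold change 2.69, SE 0.378, edgeR adjusted p = 0.0282, chr9:46228580-46230466). A few cells carried this signal. One cell held 24 of the 33 UMIs of the first Lgr5+Setdb1KO library (72.7%) and another 7 of the 26 in the second (26.9%), and without the cells over 2% lineage markers Apoa1 had too few UMIs to be tested in the 4 libraries.

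Ceacam10, of the carcinoembryonic antigen family of adhesion molecules, stood at 189 and 176 scaled CPM in Lgr5+WT and at 42.6 and 55 in Lgr5+Setdb1KO (means 182 ± 9.64 and 48.8 ± 8.79, SD, n = 2 libraries each). It was 3.72-fold lower in Lgr5+Setdb1KO (log2 fold change -1.90, SE 0.195, edgeR adjusted p = 0.00556) and was detected in 54.4% and 42.0% of the Lgr5+WT cells against 14.0% and 15.7%. Cd177, a glycoprotein best known from neutrophils, stood at 42.2 and 40.3 scaled CPM in Lgr5+WT and at 8.24 and 3.75 in Lgr5+Setdb1KO (log2 fold change -2.78, SE 0.389, edgeR adjusted p = 0.0282). Both genes lie in the same region of chromosome 7, Cd177 at chr7:24743983-24760311 on the minus strand and Ceacam10 at chr7:24777206-24784657 on the plus strand.

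**Figure D3:**
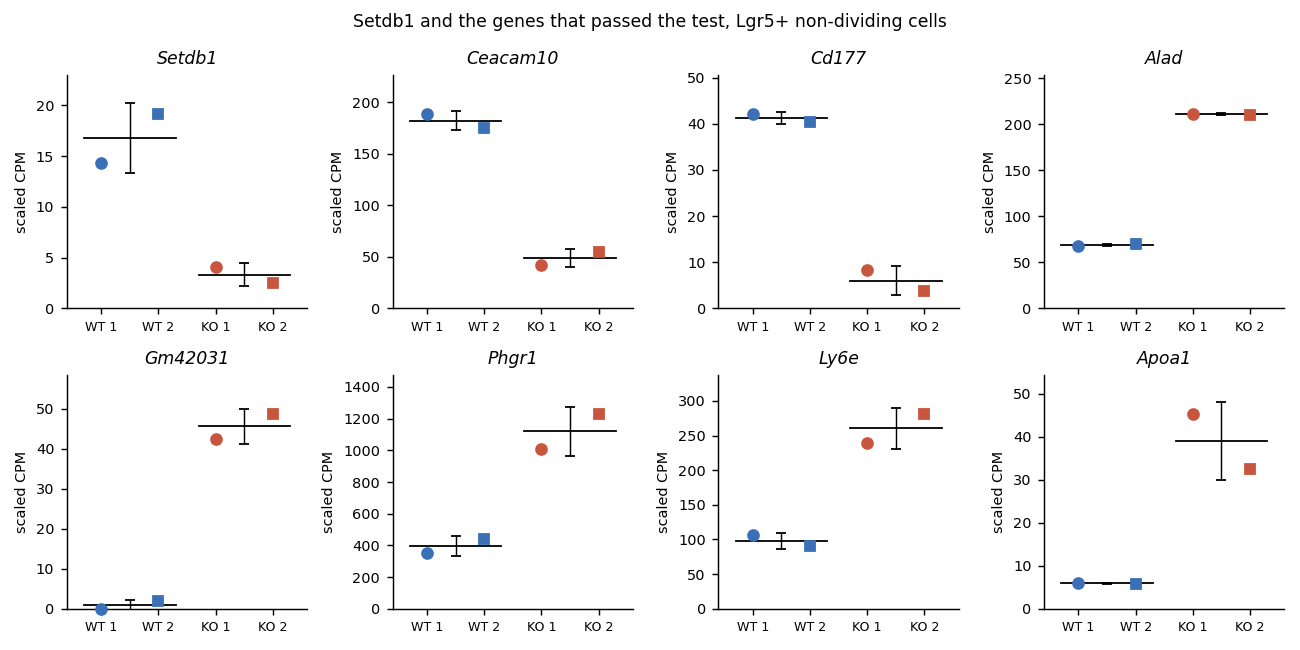
Scaled CPM (vertical axis, from 0) of Setdb1 and of the 7 genes past the threshold in the chosen cells, 1 point per library by genotype (horizontal axis), with the mean as a line and the SD over 2 libraries as bars. Alad stands at 67.8 and 70.0 in Lgr5+WT and at 212 and 210.1 in Lgr5+Setdb1KO; in each panel the genotypes do not overlap.

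The calls were recomputed with 1 library left out or the rule changed. Of up to 19 alternatives 8 have a genotype with a single library, and the counts that follow include them. Phgr1 passed in 19 of 19 alternatives, Alad and Ceacam10 in 18 of 19, Ly6e in 17 of 19, Gm42031 in 16 of 17, Cd177 in 15 of 17 and Apoa1 in 12 of the 16 in which it could be tested. Without Lgr5+WT replicate 1, Apoa1 and Cd177 no longer passed (edgeR adjusted p = 0.137 for both). With cells thinned to 2000 UMIs, 3 genes passed, namely Alad, Ceacam10 and Phgr1 (edgeR adjusted p = 0.0289, 0.0334 and 0.015).

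The differences in these genes were also measured in other barcodes of the same 4 libraries, which share animals and suspension with the chosen cells and are no independent replicate. Of the 7 genes, 5 passed in Lgr5-undetected cells, where 0.133% of 10499 genes did. The count was again 5 in S-phase cells (0.436% of 7567 genes), in dividing cells (0.328% of 11574) and in the remaining barcodes (0.701% of 12688). Split into genes higher and lower in Lgr5+Setdb1KO, these backgrounds were 0.0857% and 0.0476% in Lgr5-undetected cells and 0.185% and 0.251% in S-phase cells. They were 0.181% and 0.147% in dividing cells and 0.339% and 0.363% in the remaining barcodes. Alad had log2 fold changes of 1.41, 1.26, 1.38 and 1.2 in these 4 classes, in this order, and passed in each. Ceacam10 likewise passed in each with -2.18, -2.71, -2.85 and -2.49, and Gm42031 with 5.07, 4.75, 4.75 and 4.67. Phgr1 had smaller differences outside the chosen cells, with log2 fold changes of 1.00, 0.91, 0.96 and 0.47. Apoa1 passed in none of the 4 classes, with log2 fold changes between -0.08 and 1.46.

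**Figure D4:**
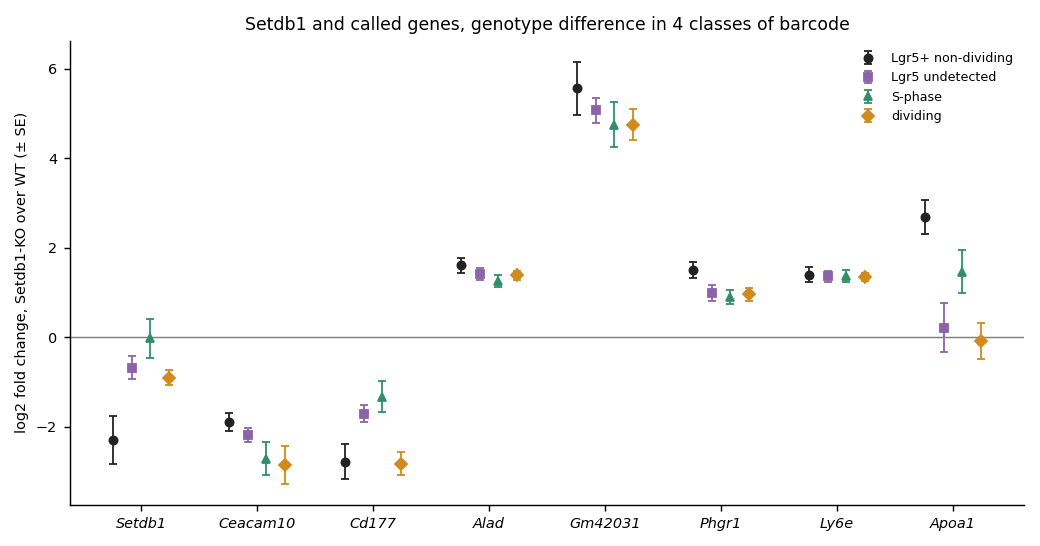
Log2 fold change of Lgr5+Setdb1KO over Lgr5+WT with its SE (vertical axis) for single genes in the chosen cells and in the Lgr5-undetected, S-phase and dividing cells (horizontal axis) of the same 4 libraries. Phgr1 stands at 1.5 in the chosen cells and at 0.91 to 1.00 in the other 3 classes, and Alad stays between 1.26 and 1.61.

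Without the 58 cells over 2% lineage markers, 661 cells remained (205 and 191 in Lgr5+WT, 97 and 168 in Lgr5+Setdb1KO), and 46 of 6336 genes passed (0.726%). Of these 24 rose (0.379%) and 22 fell (0.347%), and 9.01% of the 6336 had an unadjusted p under 0.05. The 46 genes included 6 of the 7 above, with Apoa1 untested. Since the limit is set on the lineage markers, the values of those markers in the 661 cells are partly fixed by it, and they are given below as a description. Rbp2, Itln1 and Gip are such markers, rose and are included in the 46. The count ranged from 49 to 86 when a library was left out in addition, with the highest without Lgr5+WT replicate 2. The other genes past this test were named because they passed, after their values were seen.

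Transcripts of the MHC class II genes were followed next. All 10 genes of the list were counted, which comprises the chains of the presenting molecules, the invariant chain Cd74, the peptide-loading genes and the activator Ciita. Of these 6 could be tested, 5 fell in the 661 cells, and all 6 separated the genotypes without overlap in all 719 cells, lower in Lgr5+Setdb1KO, where 19.7% of all genes did. In all 719 cells 0 of the 6 passed with edgeR (adjusted p between 0.104 and 0.276, all 6 at an unadjusted p under 0.05), and DESeq2 called 0, with the adjusted p of H2-DMb1 undefined. That count turned on the setting. All 6 passed with no filter on low counts, and H2-Aa alone with a mitochondrial limit of 10% (edgeR adjusted p = 0.0262). With 1 library left out, all 6 passed without Lgr5+WT replicate 2 and without Lgr5+Setdb1KO replicate 2, 4 passed without Lgr5+Setdb1KO replicate 1 (Cd74 and H2-DMa did not), and 0 passed without Lgr5+WT replicate 1. With at least 2 Lgr5 UMIs per cell Cd74, H2-Aa and H2-Eb1 passed (edgeR adjusted p = 0.0231, 0.0231 and 0.0449). The median log2 fold change of the list was -1.43 in the 719 cells and -1.46 in the 661, against 0.0055 and 0.0038 over all genes tested.

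Promoters of class II genes carry a Y box, an inverted CCAAT element that helps to assemble the class II activator complex, and 2 such windows are shown for the chains with strong differences. They are 30 bases of the RefSeq promoter table (GRCm38.p6), with the motif CTGATTGG in capitals.
H2-Aa, chr17:34287856-34287885, minus strand: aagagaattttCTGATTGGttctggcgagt
H2-Eb1, chr17:34305794-34305823, plus strand: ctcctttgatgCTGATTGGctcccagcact
The motif starts 51 bases before the gene start in H2-Aa and 62 bases before it in H2-Eb1. Searched on both strands within 250 bases upstream, these letters were found in 3.83% of all promoters in the table (1258 of 32851) and in 3 of the 7 class II genes it holds, the third being H2-Oa, which had 0 UMIs in the chosen cells. The match is a description of the letters in these windows.

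H2-Aa, the alpha chain that lies at chr17:34282744-34287823, stood at 317 and 198 scaled CPM in Lgr5+WT and at 50.8 and 98.8 in Lgr5+Setdb1KO. Its log2 fold change was -1.78 in all chosen cells (SE 0.305, edgeR adjusted p = 0.104) and -1.76 in the 661 cells (SE 0.255, edgeR adjusted p = 0.000469). H2-Ab1, the matching beta chain at chr17:34257689-34269419, stood at 329 and 223 scaled CPM in Lgr5+WT and at 72.8 and 139 in Lgr5+Setdb1KO. H2-Eb1, the beta chain at chr17:34305867-34316674, stood at 387 and 247 scaled CPM against 81.1 and 146. In each of these chains the first Lgr5+WT library was the highest and the first Lgr5+Setdb1KO library the lowest. In the 661 cells H2-Ab1 had a log2 fold change of -1.44 and H2-Eb1 of -1.48 (edgeR adjusted p = 0.00136 for both). With a further library left out, and so a single library in 1 genotype, the log2 fold changes of H2-Aa, H2-Ab1 and H2-Eb1 ran from -1.05 to -2.35.

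Cd74, the invariant chain that escorts class II molecules through the cell, was the most abundant gene of the list. It stood at 2398 and 1707 scaled CPM in Lgr5+WT and at 554 and 1040.5 in Lgr5+Setdb1KO (means 2053 ± 488 and 797 ± 344, SD, n = 2 libraries each). The log2 fold change was -1.36 in all chosen cells (SE 0.279, edgeR adjusted p = 0.181) and -1.39 in the 661 cells (SE 0.212, edgeR adjusted p = 0.000893). Without Lgr5+Setdb1KO replicate 1 the latter was -0.98 and no longer passed (edgeR adjusted p = 0.14). H2-DMb1, which loads peptide, fell in the 661 cells (log2 fold change -1.57, edgeR adjusted p = 0.0189), a call that ended without Lgr5+WT replicate 1 or Lgr5+Setdb1KO replicate 1 (0.212 and 0.16). Its partner H2-DMa had -0.98 and an edgeR adjusted p of 0.0689. Ciita stood at 7.19 and 2.80 CPM in Lgr5+WT and at 4.16 and 6.61 CPM in Lgr5+Setdb1KO, too low to be tested.

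Free RNA moved with class II as well. Empty droplets held 573 and 400.0 CPM of Cd74 in Lgr5+WT and 60.4 and 148 CPM in Lgr5+Setdb1KO. With cells thinned to 2000 UMIs, Cd74 was detected in 90.2% and 70.7% of the chosen Lgr5+WT cells and in 39.4% and 63.1% of the chosen Lgr5+Setdb1KO cells. The same shares in goblet barcodes were 27.2% and 25.6% in Lgr5+WT and 2.74% and 9.45% in Lgr5+Setdb1KO. Detection in the chosen cells was above that in goblet barcodes in every library. Per cell, class II genes gave a median of 36.5 and 15.2 UMIs per 10000 UMIs in Lgr5+WT and of 1.26 and 8.37 in Lgr5+Setdb1KO. Within both genotypes the replicates were far apart. The part of free RNA in the differences was not tested.

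**Figure D5:**
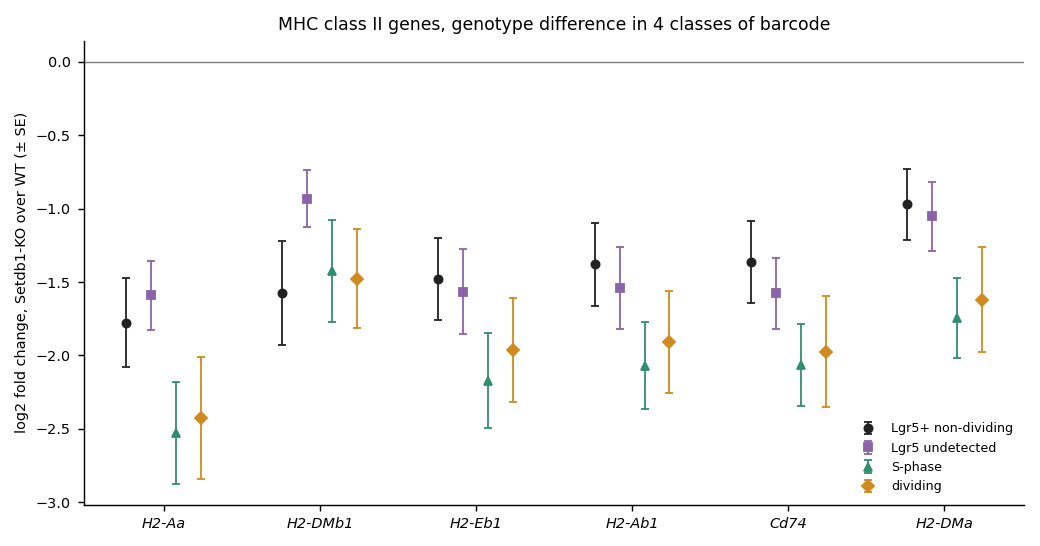
Log2 fold change of Lgr5+Setdb1KO over Lgr5+WT with its SE (vertical axis) for the MHC class II genes in the chosen cells and in the Lgr5-undetected, S-phase and dividing cells (horizontal axis). Cd74 stands at -1.36 in the chosen cells and at -2.06 and -1.98 in S-phase and dividing cells; every point lies below 0.

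Class II genes also had negative median fold changes in the other classes. In S-phase cells 5 of the 6 tested fell, where 0.251% of all genes did, while 0 of 7 passed in Lgr5-undetected cells and 0 of 7 in dividing cells with edgeR. The median log2 fold change of the list was -1.54 in Lgr5-undetected cells, -2.07 in S-phase cells and -1.91 in dividing cells. Cd74 stood at 2059 and 1476 CPM in S-phase cells of Lgr5+WT and at 258 and 584 CPM in those of Lgr5+Setdb1KO, and at 1999 and 1302 against 230.1 and 580.1 CPM in dividing cells. In CPM the chosen cells of Lgr5+Setdb1KO, at 558 and 916, therefore held more Cd74 than the cycling cells of the same libraries. In Lgr5+WT the chosen cells stood at 2544 and 1663 CPM.

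The difference between these effects was tested by a class-by-genotype term with the library as a block. Over all chosen cells, 0 of 7026 genes passed against S-phase cells (0%) and 0 of 9952 against dividing cells (0%) with edgeR, with 319 and 439 genes at an unadjusted p under 0.05. DESeq2 also gave 0 in both, with 17 and 62 genes at an unadjusted p under 0.05. The edgeR counts rose to 35 and 29 without Lgr5+Setdb1KO replicate 1, to 31 and 7 without its replicate 2, to 1 and 0 without Lgr5+WT replicate 1 and to 1 in both without its replicate 2. For Cd74 the fold change was less negative in the chosen cells by 0.73 on the log2 scale against either class (SE 0.123 and 0.131, edgeR adjusted p = 0.0682 and 0.177). Without cells over 2% lineage markers in either class, 7 of 6716 genes passed against S-phase cells (0.104%) and 6 of 9769 against dividing cells (0.0614%). With a further library left out the first count fell to 3 without Lgr5+WT replicate 2 or Lgr5+Setdb1KO replicate 1, and the second rose to 12 or more without any of the 4, at most to 28 without Lgr5+WT replicate 2. Cd74 was among both, with differences of 0.70 (SE 0.0995, edgeR adjusted p = 1.41e-06) and 0.72 (SE 0.1, edgeR adjusted p = 0.00333). Without Lgr5+Setdb1KO replicate 1 the difference from S-phase cells no longer passed (0.56, edgeR adjusted p = 0.123).

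Phgr1 passed in the same tests, with a rise that was larger in the chosen cells by 0.60 against S-phase cells (SE 0.106, edgeR adjusted p = 0.00037) and by 0.59 against dividing cells (SE 0.0890, edgeR adjusted p = 0.00333). With all chosen cells neither passed (edgeR adjusted p = 0.348 and 0.177). The first of these no longer passed without Lgr5+Setdb1KO replicate 1 (0.52, edgeR adjusted p = 0.554). In Lgr5+WT, Phgr1 stood at 371 and 431 CPM in the chosen cells against 610.3 and 829 in S-phase and 665 and 788 in dividing cells. In Lgr5+Setdb1KO the chosen cells stood at 1017 and 1083 CPM, against 1204 and 1489 in S-phase and 1241 and 1529 in dividing cells. Empty droplets held 1011 and 981 CPM of Phgr1 in Lgr5+WT and 1479 and 1507 CPM in Lgr5+Setdb1KO, above the chosen cells in every library, and the part of free RNA was not tested. The other genes past the threshold were Fabp6, Chgb, Reg1, Selenom and Alox5ap against S-phase cells, and the tuft cell genes Rgs13, Lrmp, Alox5ap and Dclk1 against dividing cells. Markers of the 2% limit among them are no test.

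Against Lgr5-undetected cells, a test added after the data were seen, 22 of 7982 genes passed (0.276%), all with a higher fold change in the chosen cells. They included the enterocyte genes Rbp2, Apoa1 and Fabp1 and the Paneth genes Ang4, Lyz1 and Mptx2. Without cells over 2% lineage markers 6 of 7740 passed (0.0775%), among them Phgr1 with a difference of 0.53 (SE 0.104, edgeR adjusted p = 0.00121). Cd74 did not pass there, with a difference of 0.20 (SE 0.103, edgeR adjusted p = 0.883).

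MHC class I and interferon genes were examined next. Of 21 class I genes 16 could be tested, 0 passed in all chosen cells with edgeR or DESeq2 (7 at an unadjusted p under 0.05) and 1 fell in the 661 cells, with a median log2 fold change of -0.38 and 9 genes lower without overlap, where 19.7% of all genes were. That gene was H2-D1, a class I heavy chain, at 356 and 352 scaled CPM in Lgr5+WT and 189.6 and 235 in Lgr5+Setdb1KO (log2 fold change -0.86 in the 661 cells, SE 0.167, edgeR adjusted p = 0.00957), a call that ended without Lgr5+Setdb1KO replicate 1 or 2 (0.326 and 0.0666). B2m, the shared light chain, stood at 368 and 326 scaled CPM against 257 and 274 (log2 fold change -0.39, edgeR adjusted p = 0.573). Of 38 interferon and nucleic acid sensing genes 13 could be tested, 0 passed with either tool (7 at an unadjusted p under 0.05), and the median was -0.58, or -0.37 in the 661 cells. Without overlap, 7 were lower and 1 was higher, where 19.7% and 18.4% of all genes were. Irf1, a transcription factor of the interferon response, stood at 65.6 and 59.5 scaled CPM in Lgr5+WT and at 35.7 and 40.0 in Lgr5+Setdb1KO (log2 fold change -0.72, edgeR adjusted p = 0.375). Ifitm3, an antiviral membrane protein, stood at 1201 and 1516 against 901 and 920.4 (log2 fold change -0.58, edgeR adjusted p = 0.44).

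Cd14, Nfkbia, Zc3h12a, Cebpd, Cyba and Neat1 also fell in the 661 cells. They were picked from the 22 genes that fell after their values were seen and form no tested list. Cd14, a coreceptor for bacterial lipopolysaccharide, stood at 28.6 and 24.9 scaled CPM in all chosen Lgr5+WT cells and at 4.12 and 6.25 in the Lgr5+Setdb1KO cells, and its log2 fold change in the 661 cells was -2.41 (SE 0.472, edgeR adjusted p = 0.0103). Nfkbia, the NF-kappa-B inhibitor that NF-kappa-B itself induces, stood at 144 and 67.1 against 31.6 and 46.3 scaled CPM, with the first control far above the second (log2 fold change -1.61 in the 661 cells, SE 0.299, edgeR adjusted p = 0.00702). Zc3h12a, a ribonuclease that limits inflammation, and Cebpd, a transcription factor of acute responses, fell by 2.69 and 1.49 on the log2 scale (edgeR adjusted p = 0.0445 and 0.0106). Cyba, a subunit of NADPH oxidases, fell by 0.77 on the log2 scale (edgeR adjusted p = 0.0357), and the nuclear noncoding RNA Neat1 by 1.54 (edgeR adjusted p = 0.00747). Neat1 stood at 69.3 and 80.6 scaled CPM in Lgr5+WT and at 33 and 35 in Lgr5+Setdb1KO. Of the 6, Neat1 alone passed in all 4 fits with a further library left out, each with a single library in 1 genotype. Without Lgr5+WT replicate 1 the edgeR adjusted p was 0.132 for Cd14, 0.112 for Nfkbia and 0.103 for Cyba, and Zc3h12a could not be tested. Without Lgr5+Setdb1KO replicate 1 it was 0.053 for Cd14, 0.245 for Cebpd, 0.0679 for Zc3h12a and 0.668 for Cyba. Without Lgr5+Setdb1KO replicate 2 it was 0.0516 for Cyba.

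Genes of differentiated cells were tested as lists. Paneth and goblet values moved with barcodes of strong secretory signal in the second Lgr5+Setdb1KO library. There 9.59% of barcodes were marked as doublets (2 cells in 1 barcode), against 2.82% in the first. The setting fixed these shares in advance from the number of barcodes with at least 1000 UMIs, 11989 in the second and 3510 in the first. They are therefore no measured doublet rates and do not compare the libraries. Of the marked barcodes, 9 in the second library and 0 in the first were chosen cells. The part of doublets in the Paneth and goblet values was not tested. Of 10 Paneth markers tested 0 passed in all chosen cells with edgeR or DESeq2 (6 at an unadjusted p under 0.05), with a median log2 fold change of 2.40. Paneth, goblet, enterocyte, enteroendocrine and tuft markers set the limit that left the 661 cells, so their values there are described without a test. The Paneth median was 0.68 in those cells. The 22 alpha-defensin genes, antimicrobial peptides of Paneth cells, gave a median of 2.87 over the 12 that could be tested, 0 calls and 10 genes at an unadjusted p under 0.05. In the 661 cells their median was 0.72, a value that the limit also touches. In empty droplets the alpha-defensins summed to 47381.5 and 56770.3 CPM in Lgr5+WT and to 92185 and 101195 CPM in Lgr5+Setdb1KO, higher in both knockout libraries, and the part of free RNA in these values was not tested. Lyz1, the Paneth cell lysozyme, stood at 356 and 465 scaled CPM in Lgr5+WT and 158 and 4149.5 in Lgr5+Setdb1KO. The knockout replicates thus lay on both sides of the controls. Of 10 goblet markers tested 0 passed with either tool (0 at an unadjusted p under 0.05), with a median of 0.36 and 0 genes without overlap, and in the 661 cells the median was 0.19 over 7 genes. Zg16, a goblet cell lectin, stood at 1512 and 1202 against 176 and 4573 scaled CPM. Of 11 enterocyte markers tested Apoa1 alone rose with edgeR, 6 had an unadjusted p under 0.05, and 6 were higher without overlap, where 18.4% of all genes were. The median over the list was 0.74 and 0.19 in the 661 cells. In empty droplets the enterocyte markers summed to 2990.0 and 3664 CPM in Lgr5+WT and to 7095 and 3873 CPM in Lgr5+Setdb1KO, and the part of free RNA was not tested. Of 7 enteroendocrine markers tested 0 passed (1 at an unadjusted p under 0.05), with a median of 0.04. In the 661 cells the median was 1.47 over 4 of them. Of 4 tuft markers 0 passed (0 at an unadjusted p under 0.05), with a median of -0.59, and none could be tested in the 661 cells.

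Of 15 genes that the study names as prematurely expressed 5 could be tested here, a list chosen by the study on these samples and so no independent evidence of its direction. None passed in all chosen cells (0 of 5 with edgeR or DESeq2, 2 at an unadjusted p under 0.05). Their median log2 fold change was 1.57, and 0.37 in the 661 cells. Rbp2 and Itln1 are also markers that set the limit of the 661 cells, where their values are a description. Of the 5 tested, these 2 had an edgeR adjusted p under 0.05 there. Lyz1 was given above, and the other genes tested are not shown. Rbp2, a retinol-binding protein of enterocytes, stood at 16.6 and 33.6 scaled CPM in all chosen Lgr5+WT cells and at 57.7 and 330.2 in the Lgr5+Setdb1KO cells. Both knockout libraries were above both controls. Its log2 fold change was 2.99 (SE 0.652, edgeR adjusted p = 0.189) and 1.86 in the 661 cells (SE 0.348), and in the second Lgr5+Setdb1KO library 1 cell held 45.1% of the Rbp2 UMIs of all chosen cells and another held 50 of the 79 Rbp2 UMIs of its cells among the 661 (63.3%). Itln1, a lectin of Paneth and goblet cells, stood at 471 and 1212 against 188 and 4814 scaled CPM in all chosen cells, with overlap, and had a log2 fold change of 0.75 in the 661 cells (SE 0.179). A single cell held 66.7% and 46.8% of the Itln1 UMIs of all chosen cells in the 2 Lgr5+WT libraries. Fabp6, the ileal bile acid binding protein, is not among the 15 genes. It stood at 16.6 and 5.76 scaled CPM in Lgr5+WT and at 1176 and 95.0 in Lgr5+Setdb1KO. But 841 of its 856 UMIs in the first Lgr5+Setdb1KO library came from 1 cell (98.2%) and 52 of its 76 in the second (68.4%). Its values describe those cells.

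Ttr, Sycn, Mogat2 and Tead2 rose in the 661 cells, where 0.379% of all genes did, and were picked after their values were seen. Gip, the incretin hormone of enteroendocrine K cells, gave 2 and 5 UMIs in all chosen Lgr5+WT cells and 16 and 12 UMIs in the Lgr5+Setdb1KO cells, with at most 2 UMIs in any cell (log2 fold change 2.66 in the 661 cells, SE 0.599, as a description, since Gip is a marker of the limit). In empty droplets the enteroendocrine markers summed to 1124 and 1263 CPM in Lgr5+WT and to 2613 and 2003.5 CPM in Lgr5+Setdb1KO, and the part of free RNA was not tested. Ttr, the thyroid hormone carrier transthyretin, stood at 64.8 and 81.5 scaled CPM in Lgr5+WT and at 176 and 140.1 in Lgr5+Setdb1KO (log2 fold change 1.14 in the 661 cells, SE 0.194, edgeR adjusted p = 0.00254). Sycn, a secretory granule protein, stood at 39.2 and 63.3 against 198 and 95.0 scaled CPM (log2 fold change 1.59 in the 661 cells, SE 0.258, edgeR adjusted p = 0.00136). Mogat2, an enzyme of fat absorption, stood at 4.52 and 1.92 against 19.2 and 22.5 scaled CPM, and Tead2, a partner of the growth regulator Yap, at 4.52 and 4.80 against 19.2 and 21.3. Both rose in the 661 cells, by 2.57 and 2.54 on the log2 scale (edgeR adjusted p = 0.0189 and 0.0126). Mogat2 and Tead2 passed in none of the fits with a further library left out, where the edgeR adjusted p lay between 0.09 and 0.451.

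Transcription factors of the lineages did not pass, with 0 calls by edgeR or DESeq2. Of 23 secretory factors 5 could be tested (0 at an unadjusted p under 0.05), with a median log2 fold change of 0.25, and of 21 absorptive factors 14 could be tested (1 at an unadjusted p under 0.05), with a median of 0.00086. In the 661 cells the medians were 0.25 over 3 secretory and 0.006 over 14 absorptive factors, again with 0 calls by edgeR. The 6 factors named by the study that could be tested had a median of 0.24 and 0 calls (1 at an unadjusted p under 0.05), and that list was chosen on these samples. Cdx2, the regulator of intestinal identity, stood at 142 and 151 scaled CPM in Lgr5+WT and at 162 and 141 in Lgr5+Setdb1KO, and Foxa3, of the secretory lineages, at 52.0 and 67.1 against 83.8 and 71.3 (edgeR adjusted p = 0.97 and 0.684). Of 23 genes of the H3K9 methylation machinery 14 could be tested, 0 passed with either tool (2 at an unadjusted p under 0.05), and the median was -0.15. Atrx, a chromatin remodeler of H3K9me3 regions, stood at 137 and 119.9 against 102 and 93.8 scaled CPM (log2 fold change -0.40, edgeR adjusted p = 0.617).

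In the lists of housekeeping, stress and death genes 0 genes passed in all chosen cells with edgeR or DESeq2. Medians of the log2 fold change were 0.08 over 81 ribosomal protein genes, 0.10 over 79 nuclear genes of oxidative phosphorylation and -0.26 over 12 mitochondrially encoded genes, with 0, 2 and 3 genes at an unadjusted p under 0.05. Without overlap, 17 ribosomal and 21 oxidative phosphorylation genes were higher and 1 and 3 lower, and 8 mitochondrially encoded genes were lower and 0 higher, where 18.4% of all genes were higher and 19.7% lower. The ribosomal count of higher genes lies near that background, and the count of lower genes lies below it. Of the last, mt-Nd3 fell in the 661 cells (log2 fold change -0.83, SE 0.194, edgeR adjusted p = 0.0438; 0.659 without Lgr5+Setdb1KO replicate 1). The median was 0.13 over 10 p53 target genes, -0.01 over 14 genes of necroptosis and cell death and 0.21 over 16 stress and immediate early genes, with 0, 1 and 3 genes at an unadjusted p under 0.05. Trp53 stood at 91.9 and 105 scaled CPM in Lgr5+WT and at 106 and 110.1 in Lgr5+Setdb1KO. The zinc finger genes with the prefix Zfp, many of them repressors of repeats, had a median of -0.05 over the 95 that could be tested (6 at an unadjusted p under 0.05), and the 9 tested in the Zfp9xx group a median of -0.19 (0 at an unadjusted p under 0.05). Fatty acid and ketone genes had a median of -0.15 over 15 genes and metallothioneins of 0.21 over 3, with 0 genes at an unadjusted p under 0.05 in both. The 3 regenerative or fetal genes tested had a median of 0.09 (1 at an unadjusted p under 0.05), and the 4 sex-linked genes tested of -0.09 (0 at an unadjusted p under 0.05). No protocadherin reached the level to be tested.

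The share of barcodes that met the rule depends on depth, so it was compared after thinning every barcode to 2000 UMIs. It was then 2.75% and 2.04% in Lgr5+WT and 2.04% and 1.18% in Lgr5+Setdb1KO, with means of 2.39% ± 0.505 and 1.61% ± 0.614 (SD, n = 2 libraries each; exact two-sided permutation p = 0.67). The second control and the first knockout had nearly the same share. Thinned to 1500 UMIs the shares did not overlap, at 1.77% and 1.45% against 1.40% and 0.978% (exact two-sided permutation p = 0.33, the smallest possible). They did not overlap either with at least 5 Olfm4 or 2 Lgr5 UMIs or with a mitochondrial limit of 10%. With doublets left out the second control and the first knockout were again alike, at 2.07% each. Whether the shares overlapped turned on the random draw of UMIs. In 20 further draws, added after the data were seen, the knockout mean was lower in all 20, and the libraries of the genotypes separated in 13 and overlapped in 7. The first knockout ranged from 1.37% to 2.29% over the draws, the second control from 1.67% to 2.19%, and the log2 ratio of the means from -0.94 to -0.44. The log2 ratio of the means was -0.57, and it ran from -0.23 without Lgr5+Setdb1KO replicate 2 to -1.03 without its replicate 1. Without thinning the shares were 4.51% (95% exact interval 3.94 to 5.14) and 3.26% (2.83 to 3.74) in Lgr5+WT and 3.46% (2.83 to 4.19) and 1.79% (1.55 to 2.05) in Lgr5+Setdb1KO, where the intervals cover counting error only. Dividing cells made up 9.00% ± 1.51 of thinned barcodes in Lgr5+WT and 4.58% ± 0.938 in Lgr5+Setdb1KO, and Lgr5-undetected cells 31.2% ± 2.70 and 23.8% ± 0.844 (SD, n = 2 libraries each; exact two-sided permutation p = 0.33 for both, the smallest this design allows). S-phase cells made up 0.139% ± 0.0778 in Lgr5+WT and 0.148% ± 0.0401 in Lgr5+Setdb1KO, with overlap. A lower share cannot be told apart from a lower Olfm4 or Lgr5 level, since both decide which barcodes meet the rule.

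Variability between the chosen cells was measured as the coefficient of variation (CV, SD over mean) of each gene, with cells thinned to 2000 UMIs. The median over 2201 genes was 218% and 223% in Lgr5+WT and 219% and 227% in Lgr5+Setdb1KO. Means were 220.1% ± 3.49 and 222.7% ± 5.86 (SD, n = 2 libraries each), and the libraries of the genotypes overlapped (exact two-sided permutation p = 0.67). The difference of 2.54 percentage points became -1.60 without Lgr5+Setdb1KO replicate 2 and 6.68 without its replicate 1.

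The same rule was applied to the 4 lineage-traced libraries, from Lgr5-GFP-CreERT2/nTnG and Lgr5-GFP-CreERT2/ Setdb1lox/lox/nTnG mice, in which the nTnG reporter keeps GFP on in the progeny of stem cells. It found 199 barcodes, 38 and 10 in the libraries labelled WT and 45 and 106 in those labelled Setdb1-KO, so no test was made. Lineage markers took a median of 33.6% and 10.1% of their UMIs in the libraries labelled WT and 1.68% and 2.76% in those labelled Setdb1-KO, and the cells are thus not of 1 kind. Over all barcodes within the limits, Setdb1 stood at 6.07 and 4.25 CPM in the libraries labelled WT and at 11 and 7.70 CPM in those labelled Setdb1-KO, against the direction of the labels. Among the 199 barcodes, Phgr1 stood at 115 and 414 CPM in the libraries labelled WT and at 1681 and 1678 CPM in those labelled Setdb1-KO, and Cd74 at 323 and 492 against 581 and 1042 CPM. Over all barcodes within the limits Gm42031 stood at 7.22 and 6.75 CPM against 53.8 and 51.7 CPM, Phgr1 at 433 and 616 against 1726 and 2329 CPM, and Alad at 19.9 and 27.6 against 36.6 and 37.0 CPM, each higher in both libraries labelled Setdb1-KO. Ceacam10 stood at 21.4 and 24.8 CPM against 36.5 and 43.7 CPM, the reverse of its order in the Lgr5+ libraries. Cd74 overlapped, with 416 and 614 CPM against 314 and 478 CPM.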

How the data were processed

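Per the labels, libraries were made with the 10x Genomics 3′ assay from GFP+ ileal crypt cells. The authors deposited raw UMI counts for every barcode, without normalization or filtering of cells; the submitters' processing notes name Cell Ranger 6.1.1, Seurat 5.0.3 and the build mm10. Replicates were not pooled. Members and gene lists (37) were chosen with earlier results of these data known.

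UMIs of members were summed per library (721596 to 1250948) and tested with edgeR 4.0.16 (R 4.3.3; filterByExpr, TMM, quasi-likelihood F test, genotype as the only term, Benjamini-Hochberg, threshold 0.05). Class-by-genotype terms used the library as a block. Scaled CPM include TMM factors. Named genes were Setdb1, the markers, up to 10 genes past the threshold in each direction (absolute log2 fold change of at least 0.58, no overlap), up to 4 genes called or 3 most abundant per list, and the 3 smallest p per interaction; genes named outside this rule (Axin2, Clca3b, Hdhd3, H2-Aa, H2-DMa, H2-DMb1 and those called without lineage-rich cells) were chosen after their values were seen. Doublets were marked by a rebuilt DoubletFinder (pN 0.25, pK 0.09, 10 components, 0.8% per 1000 barcodes) and left out as an alternative only; they were 2, 2, 0 and 9 members. Empty droplets were barcode ranks 45000 to 90000. On simulated data (6487 genes) 33% of changes of 1 and 89% of changes of 2 on the log2 scale were recovered, with 6 unchanged genes called. Changes were not placed in the genes with the fewest UMIs, and all genes had the same dispersion. The rates thus do not cover genes with few UMIs. Intervals and limits from a count of 0 (3 counts) cover counting error only. DESeq2 1.42.0, other limits, thinning and each library left out were alternatives. Positions come from GENCODE M21. Python 3.11.15, numpy 2.4.6, scipy 1.17.1, pandas 2.3.3 and scikit-learn 1.9.0 did the rest. Bulk RNA-seq, chromatin and ATAC samples were not used here.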

Additional observations from a re-analysis of the deposited data

Results flagged for a closer look

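The genotype effect on Cd74 differed between the non-dividing Lgr5+ cells and cycling cells once cells with over 2% lineage markers were left out. The log2 fold change was less negative by 0.695 against S-phase cells (SE 0.0995, edgeR adjusted p = 1.41e-06) and by 0.721 against dividing cells (SE 0.1, edgeR adjusted p = 0.00333). Over the alternatives, the edgeR adjusted p of the difference from S-phase cells ran from 1.35e-07 to 0.645, and DESeq2, whose difference was 0.74, gave 0.9998. For dividing cells the range was 8.56e-17 to 0.993, and DESeq2 gave 0.121.

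Phgr1 differed in the same tests, by 0.598 against S-phase cells (SE 0.106, edgeR adjusted p = 0.00037) and by 0.589 against dividing cells (SE 0.0890, edgeR adjusted p = 0.00333). With all cells of the classes the edgeR adjusted p was 0.348 and 0.177, and DESeq2 gave 0.9998 and 0.23. Over the alternatives the edgeR adjusted p ran from 0.00037 to 0.969 against S-phase cells and from 7.09e-09 to 0.993 against dividing cells. Against Lgr5-undetected cells its difference was 0.511 with all cells (SE 0.108, edgeR adjusted p = 0.0338) and 0.528 without the lineage-rich cells (SE 0.104, edgeR adjusted p = 0.00121).

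Without cells over 2% lineage markers, Fabp6 had differences of 2.81 against S-phase cells (SE 0.401, edgeR adjusted p = 1.41e-06) and 3.99 against Lgr5-undetected cells (SE 0.353, edgeR adjusted p = 1.64e-22). With all cells these were 2.39 and 3.55 (edgeR adjusted p = 0.223 and 0.234). DESeq2 gave an adjusted p of 0.9998 against S-phase cells. In the first Lgr5+Setdb1KO library 98.2% of its UMIs came from 1 cell. That cell stayed within the limit of 2%, with 98.5% of the Fabp6 UMIs left there.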

How the results depend on the processing

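The 7 genes past the threshold in the members became 128 with no filter on low counts, 13 with a mitochondrial limit of 10%, 3 with cells thinned to 2000 UMIs and 46 without lineage-rich cells. Leaving out 1 library gave 6 to 104 calls (6 without Lgr5+WT replicate 1, 94 without replicate 2, 104 and 92 without Lgr5+Setdb1KO replicate 1 and 2); without lineage-rich cells these counts were 49 to 86. DESeq2 gave 7 calls, 4 of them shared, with 4631 adjusted p-values undefined, among them those of Gm42031, Cd177 and Apoa1. Setdb1 passed with no filter only (log2 fold change -2.33, edgeR adjusted p = 0.00717) and ran from -1.97 to -2.66 with a library left out. Against S-phase cells, 0 genes became 7 without lineage-rich cells, 44 with no filter and 1 to 35 with a library left out (3 to 9 without lineage-rich cells). Against dividing cells the counts were 6, 37, 0 to 29 and 12 to 28. Against Lgr5-undetected cells 22 became 6. The difference in CV reversed to -1.60 percentage points without Lgr5+Setdb1KO replicate 2 (range -1.60 to 6.68 with a library left out) and to -0.00185 as a Fano factor. The share of members kept its direction in 12 of 12 alternatives. The causes were not tested.

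With the replicate number as a block 40 genes passed, and 5 of 6 class II genes (H2-DMa did not). Deviations of the replicate 1 libraries from their genotype means correlated over genes with r = 0.061. With 2 libraries per genotype, replicate 2 mirrors these deviations and adds no further value. The numbers were thus not shown to pair the samples.

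Leaving out every cell with at least 3 lineage marker UMIs left 0 members, and lineage-traced fits were not run, as 3 libraries held under 50 cells. Depth limits genes with few UMIs, such as Setdb1, which was not testable after thinning or with at least 2 Lgr5 UMIs.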
